A study of Apis mellifera with 24 samples.

Results

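Of 3469 honey bee genes whose reads could be assigned to a parental copy in every family, 27 met a rule for leaning to the copy of Africanized (Afr) origin over the copy of European (Eur) origin in all 4 families. The African share of a gene is the percentage of its allele-assigned reads that came from the African copy. A gene was taken when it had at least 40 such reads in each family, a share of at least 55% in at least 3 families and a share over 50% in the fourth. The same rule turned round gave 65 genes for the European copy, 276 for the paternal copy and 19 for the maternal copy. The 27 genes were thus chosen by their allele shares summed over all bees, and the shares themselves are described here without a test.

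The data are polyA RNA counts from the brains of 24 individual worker bees, sequenced as paired ends over 2 lanes. The workers were kept for about 18 days in queenless colonies, which gives workers time to activate their ovaries, and are labelled reproductive or sterile. Each of the 4 families, called lineages in the labels, came from a reciprocal cross and gave 3 reproductive and 3 sterile bees. Lineages L888 (block A) and L894 (block B) had an Africanized mother and a European father (Afr x Eur). Lineages L875 (block A) and L882 (block B) had a European mother and an Africanized father (Eur x Afr). All bees were therefore hybrids, and each cross direction within a block rests on 1 family, so that family and direction cannot be told apart there. The bees of a lineage share their parents, and p-values measure the spread among such sisters.

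Worker bees are diploid females. The drone that fathers them is haploid, so its daughters all inherit the same paternal copy of a gene, whereas the queen is diploid and sisters can carry different maternal copies. In a hybrid worker the African and the European copy lie in the same nucleus, and a gene that gives more reads from the African copy in both cross directions does so whichever parent passed that copy on. Reciprocal crosses are used to separate the ancestry of a copy from the parent that passed it on. The gene identifiers had no match in the reference gene table, so no gene name, role, position or sequence is given, and the brain label could not be checked against marker genes.

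The 27 identifiers held 25 distinct sets of allele reads. GB44423 and GB44692 had identical allele reads in every bee, and so had GB44414 and GB44702, although the members of each pair differed in total expression. Identical sets were also seen for 104 of the 3469 genes, in 52 pairs. Each such pair is counted as 2 identifiers below but carries 1 measurement of allele share.

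Allele reads over the genes ranged from 3.20 M to 9.31 M per bee, and total expression estimates from 5.19 M to 16.7 M counts per bee (M, units of 1000000). The 27 genes held between 338 and 58570 allele reads over all bees, with a median of 1395, whereas the median over the 3469 genes was 7123. A share in a single bee was used where it rested on at least 10 reads, which gave 615 values for the 27 genes. Intervals below are exact (Clopper-Pearson) 95% binomial intervals. For the share of a single bee they cover counting error only, since reads without molecular identifiers are not independent molecules. For counts of genes they are taken over the genes. The sterile bee 2 of L888 stood apart: 14.4% of all genes had a share of 20% or less in it, and 41.8% lay between 45% and 55%. In the other bees those percentages ranged from 0.879% to 7.69% and from 52.0% to 65.9%. In L888 the letter in the column headers of the allele tables also stood opposite to its use in the other lineages, and the status labels were followed throughout. Some results that move with this bee are given with and without it, such as the list of genes that met the rule. Others, among them the measures of spread among sisters and the shares averaged by parent of origin, are given with all bees only.

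The most even lean to the African copy belonged to GB48687. Its share was 92.7% in L875, 90.8% in L882, 91.8% in L888 and 92.7% in L894, over 994 reads. In single bees of L875 the lowest share was 85%, the median 94.1% and the highest 100%. In L882 they were 86.7%, 91.3% and 96.4%. All 23 bees with enough reads lay at 82.3% or above, in both statuses and both cross directions. That lowest value, in sterile bee 3 of L888, rested on 62 reads and had an interval of 70.5% to 90.8%. Sisters scattered little beyond counting error for GB48687: the chi-square of the 6 bees divided by its degrees of freedom, which is near 1 for counting error alone, lay between 0.95 and 2.40 over the lineages.

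GB49947 combined a high share with many reads, 48517 in all. The African copy gave 64.8% of reads in L875, 67.7% in L882, 76.3% in L888 and 94.0% in L894. In the 6 bees of L894 the share was 82.6% at the lowest, 93.9% in the median and 95.9% at the highest. In L875 these values were 47.9%, 66.8% and 73.7%, so no bee of L894 overlapped with a bee of L875. Reproductive bee 2 of L875 was the 1 bee of 24 under 50%. The intervals of single bees for GB49947 were at most 11.8 percentage points wide.

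The next genes by their lowest lineage share were GB53331, GB43784 and GB53329. GB53331 had shares of 74.7%, 88.3%, 72.8% and 63.7% in L875, L882, L888 and L894. GB53329 had 76.3%, 82.1%, 82.4% and 58.9% in the same order. In L894 the bees of GB53329 ran from 41.9% to 90.5%, with a median of 63.3%, so that bees of this lineage lay on both sides of 50%. GB43784 reached 59.7%, 70.2%, 67.5% and 67.6% over 26869 reads, while its single bees spread from 0% to 91.4%. Lineage shares weigh bees by their reads. In L875 the mean of the single bees of GB43784 was 45.3%, and 3 of 6 lay over 50%. GB55582 had a milder lean, with 66.3%, 54.8%, 63.8% and 58.8%, but 23 of its 24 bees lay over 50%.

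**Figure D1:**
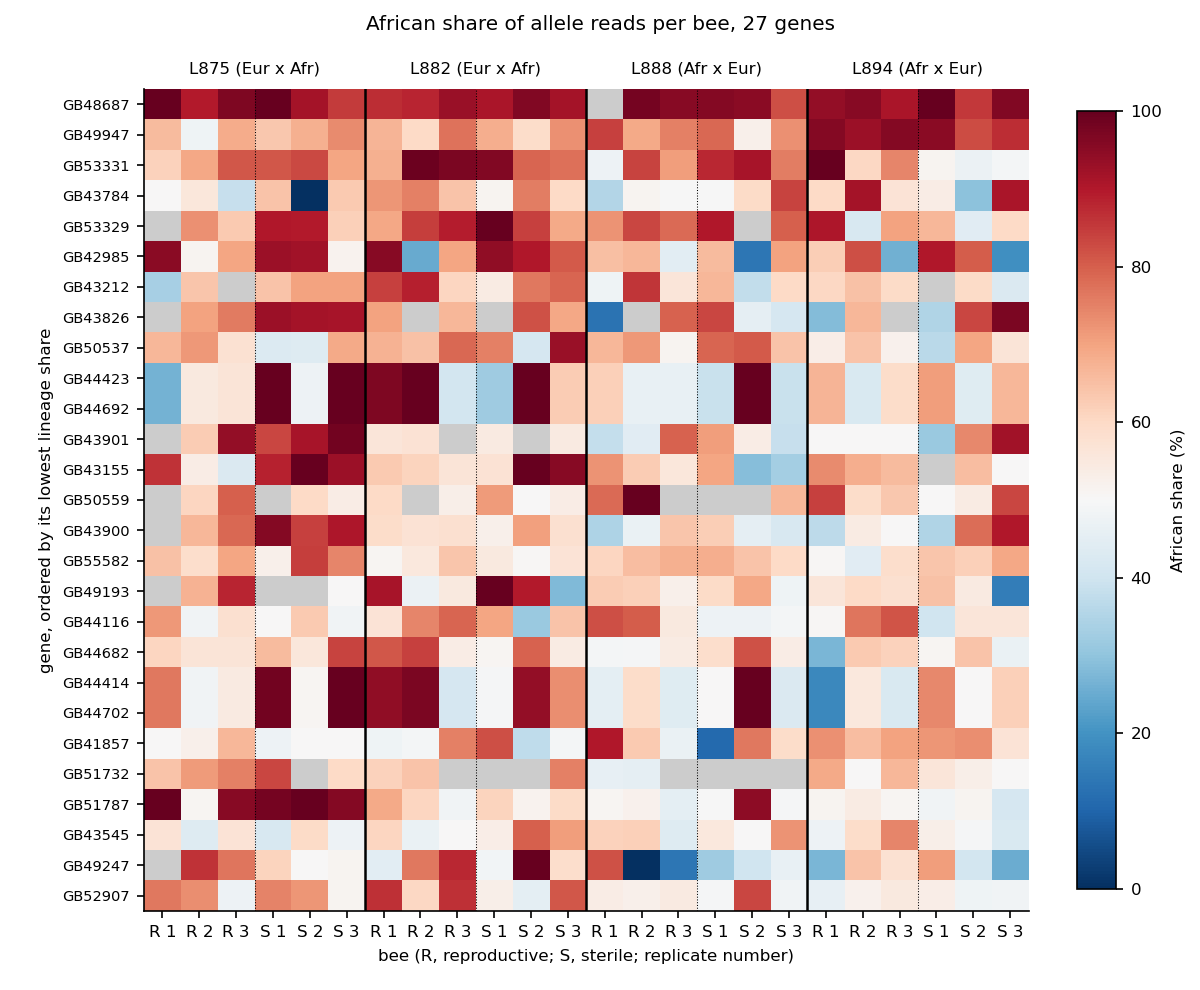
African share of allele reads (color, 0 to 100%) of the 27 genes (rows, ordered by their lowest lineage share) in the 24 bees (columns, by lineage, with reproductive bees left of sterile bees); grey marks bees with fewer than 10 reads. GB48687 is high in every bee with a value, whereas GB51787 is high in 5 of 6 bees of L875 and in 1 bee of L888.

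At the edge of the rule, 94 genes had a share over 50% in every lineage, and of these 15 reached 55% in all 4 and 12 in 3. The members with the lowest mean share were GB43545, with 50.7% in L875, 56.1% in L882, 59.5% in L888 and 56.6% in L894, and GB44682, with 62.3%, 67.7%, 56.1% and 52.8%. Just outside lay GB43904, with 75.5%, 50%, 65.4% and 68.9%, and GB48114, with 56.9%, 77.8%, 57.1% and 49.1%. In all, 59 genes reached 55% in 3 lineages and stayed at or under 50% in the fourth. With each of the 24 bees left out in turn, 15 of the 27 genes met the rule every time. Without sterile bee 2 of L888 the rule gave 23 genes, 21 of them among the 27. With the mean of single-bee shares in place of summed reads it gave 24 genes, 20 of them among the 27.

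The lean of these genes was uneven among sisters. In single bees, 74.5% of the 615 values of the 27 genes lay over 50%, against 41.1% of 81257 values of all genes. Values near balance, from 45% to 55%, made up 23.3% for the 27 genes and 58.3% for all genes. Values of 80% or more made up 24.1% for the 27 genes and 2.73% for all genes. The rule chose the genes by sums over these same bees. These contrasts with all genes therefore follow at least in part from the choice. Without sterile bee 2 of L888 the percentages over 50% were 74.8% for the 27 genes and 41.8% for all genes. The chi-square per degree of freedom was over 3 in 76 of the 108 gene and lineage values (70.4%), against 45.7% for all genes, with medians of 7.32 for the 27 genes and 2.38 for all genes. The median SD among sisters was 12.8 percentage points in L875, 13.6 in L882, 16.5 in L888 and 14.2 in L894, against 4.08, 4.19, 6.05 and 5.28 over all genes. The 27 genes also had fewer reads than most, and the part of read depth in their spread was not tested.

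GB51787, the member with the most reads at 58570, had lineage shares carried by some of the sisters. In L875 the reproductive bees had 100%, 50.9% and 95.4%, and the sterile bees had 97.9%, 100% and 96.0%. Reproductive bee 2 was near balance and its 5 sisters were almost wholly African. In L888 the sterile bee 2 had 94.6%, against 45.2% to 52.0% in its 5 sisters, so the lineage share of 61.1% was 49.5% without that bee, and the gene then no longer met the rule. In L882 the bees ran from 48.1% to 69.0%, and in L894 from 41.7% to 54.2%, on both sides of 50%.

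A similar split was seen for the pair GB44414 and GB44702. In L875 the reproductive bees had 76.5%, 48.1% and 54.3%, and the sterile bees 98.1%, 50.9% and 100%. In L882 reproductive bees 1 and 2 had 94.3% and 96.9% and sterile bee 2 had 94.0%, against 41.8% to 73.2% in the other sisters. In L888 sterile bee 2 had 100% and its sisters 42.9% to 59.1%. The L888 share was 55.1%, and 48.3% without sterile bee 2, which ended membership. The other identical pair, GB44423 and GB44692, was high in nearly the same bees: 100% in sterile bees 1 and 3 of L875, 96.6% and 100% in reproductive bees 1 and 2 of L882, and 100% in sterile bee 2 of both L882 and L888. Its L888 share was 56.3% with sterile bee 2 and 50.9% without it, and it still met the rule. The other members that left the list without that bee were GB44682 (52.4%), GB51732 (48.1%) and GB52907 (52.1%), with the L888 share then reached in brackets.

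GB42985 had the highest chi-square per degree of freedom of the 27 genes in L875, at 658, and in L882, at 719, and had 126 in L888 and 103 in L894. In L888 the highest was that of GB51787, at 569, and in L894 that of GB49947, at 184. The bees of GB42985 ran from 51.2% to 94.99% in L875, from 24.8% to 95.5% in L882, from 13.98% to 69.99% in L888 and from 19.4% to 89.8% in L894. Bees on both sides of 50% therefore occurred in 3 of 4 lineages, beneath lineage shares of 73.6%, 62.2%, 58.3% and 73.8% in L875, L882, L888 and L894. Its single-bee intervals were at most 19.4 percentage points wide. At the other end, among members with at least 400 reads, stood GB48687, described above, and GB53329, whose highest chi-square per degree of freedom was 3.34. For GB51732, with 338 reads, the highest was lower still, at 0.688. This measure grows with the number of reads and does not rank genes by spread in percentage points. In L894 the SD among bees was 5.57 points for GB49947, over 35523 reads. For GB53329 it was 17.97 points there, over 124 reads.

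The next question was whether genes chosen in some families lean the same way in a family that played no part in the choice. For this, genes at 55% or more in 3 lineages were chosen and read in the lineage left out. In L875, 18 of 24 genes so chosen lay over 50% (75%, interval 53.3% to 90.2%), against 61.5% of all genes. In L882, 16 of 20 did (80%, 56.3% to 94.3%), against 66.4% of all genes. In L888, 16 of 36 did (44.4%, 27.9% to 61.9%), against 24.4% of all genes. In L894, 22 of 51 did (43.1%, 29.3% to 57.8%), against 21.9% of all genes. With all 24 bees and the settings above, the background lay inside the interval for L875 and L882 and below it for L888 and L894. In L888 and L894, where the African copy came from the mother, most chosen genes lay at or under 50%. Genes are not independent replicates, and no test was made of these counts. Without sterile bee 2 of L888 the background lay inside all 4 intervals. The percentage was then 77.3% in L875 against 61.5% of all genes, and 82.4% in L882 against 66.4%. In L888 it was 41.7% (15 of 36, interval 25.5% to 59.2%), against 26.1% of all genes. In L894 it was 32% (16 of 50, 19.5% to 46.7%), against 21.8% of all genes. With a share of 60% in the other 3 lineages, the chosen genes were below the background in L882, at 62.5% (5 of 8) against 66.4%. At that share the background lay inside all 4 intervals, as it did with the reproductive or the sterile bees alone. With a minimum of 100 reads per lineage it lay inside the interval for L888 (23.5% to 61.1%, against 24.4%) and below it for L894. With a minimum of 20 reads it lay below the intervals for L888 and L894.

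**Figure D2:**
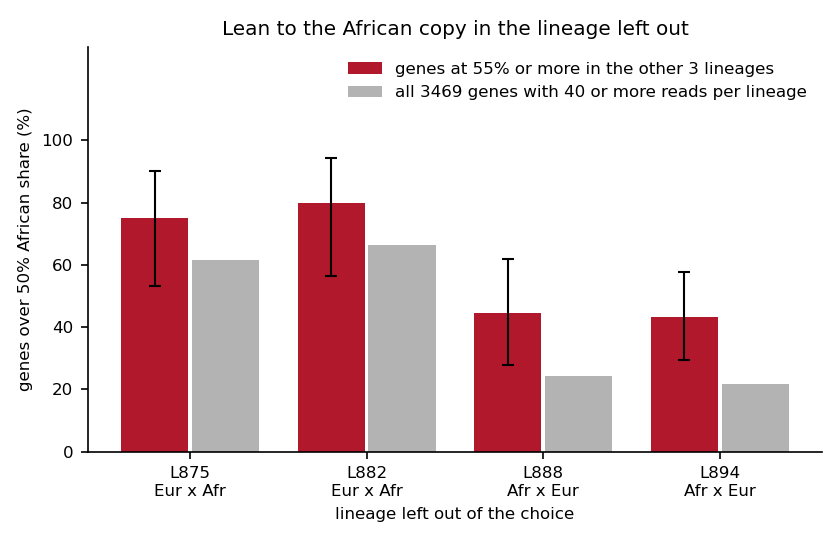
Percentage of genes with an African share over 50% in the lineage left out of the choice (x axis), for genes at 55% or more in the other 3 lineages (red, with exact 95% binomial intervals) and for all 3469 genes (grey). The red bars stand at 75%, 80%, 44.4% and 43.1%, and the intervals of L875 and L882 include the grey bar. Without sterile bee 2 of L888, or with a share of 60% in the other 3 lineages, all 4 intervals do. The intervals take genes as independent, which they are not.

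The lean was also read across statuses, choosing in the bees of 1 status and reading in their sisters of the other. The rule applied to the 12 reproductive bees gave 20 genes, of which 11 (55%) had a share over 50% in all 4 lineages of the sterile bees, against 2.32% of all genes. Applied to the 12 sterile bees it gave 26 genes, of which 11 (42.3%) had a share over 50% in all 4 lineages of the reproductive bees, against 2.80% of all genes. The rule was met in both statuses by 9 genes: GB42985, GB43212, GB44423, GB44692, GB48687, GB49947, GB50559, GB53329 and GB55582. Without sterile bee 2 of L888 both directions gave 10 of 20 genes. The bees of the 2 statuses are sisters with the same parents, so this is a repeat in other bees of the same families and not in other families.

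Parent of origin varied among the genes as well. Averaged over its lineages, the African share was higher when the African copy came from the father (L875 and L882) than when it came from the mother (L888 and L894) in 19 of the 27 genes (70.4%), against 85.6% of all genes. The median difference, father minus mother, was 10.6 percentage points for the 27 genes and 5.46 for all genes. The pair GB44414 and GB44702 had the largest positive difference, with 71.7% from the father and 53.6% from the mother. GB49947 had the largest negative one, with 66.3% from the father and 85.1% from the mother, followed by GB41857 with 54.9% from the father and 64.6% from the mother. GB48687 had 91.8% from the father and 92.3% from the mother. The rule keeps a gene only if it leans to the African copy in both directions, which bounds these differences, and they are not tested.

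**Figure D3:**
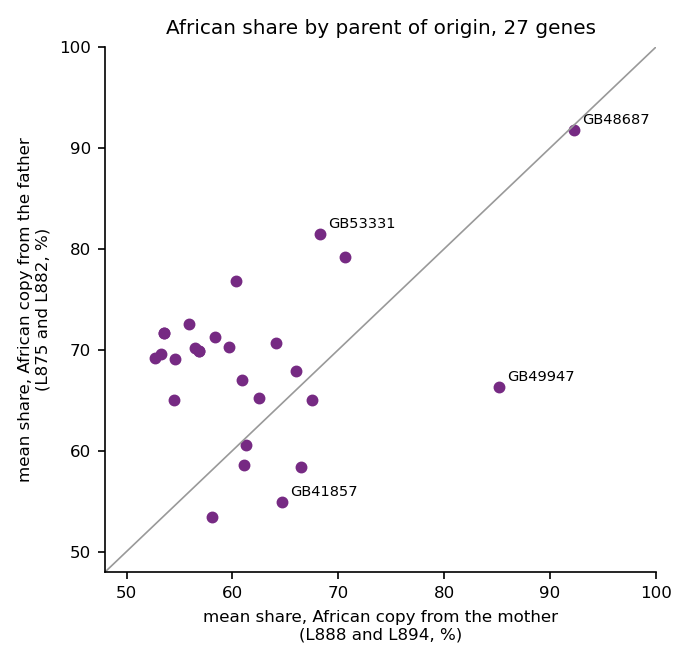
Mean African share of each of the 27 genes when the African copy came from the mother (x axis, L888 and L894, %) and from the father (y axis, L875 and L882, %); the line marks equal shares. Of the 27 points 19 lie above the line, GB49947 lies farthest below it and GB48687 close to it at over 90% on both axes.

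Whether the lean differed between reproductive and sterile bees is a question the choice of genes did not use, since the rule summed over both statuses. The log2 ratio of African to European reads was compared between statuses with edgeR's quasi-likelihood test, with the bee as a block, a ratio for each lineage and a term for parent by status. None of the 27 genes passed a Benjamini-Hochberg adjusted p of 0.05, and 0 of 3469 genes did, which is 0% of those tested. The lowest adjusted p among the 27 was 0.832. An unadjusted p under 0.05 was reached by 3 of the 27 genes and by 156 (4.50%) of all genes. With DESeq2, 5 of all genes and 0 of the 27 were called. The median size of the difference, whatever its sign, was 0.42 for the 27 genes and 0.10 for all genes. The 27 genes also had fewer allele reads than all genes (median 1395 against 7123) and a wider spread among sisters. The part of reads and spread in this size was not tested.

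GB44116 had the largest difference toward reproductive bees. Its lineage shares in reproductive bees were 57.7% in L875, 70.4% in L882, 70.9% in L888 and 68.8% in L894, against 51.3%, 50.3%, 47.96% and 53.7% in sterile bees. The share was thus higher in reproductive bees in 4 of 4 lineages, with a log2 difference of 1.04 (SE 0.33, adjusted p = 0.832 in edgeR). In L888 the direction rests on the status labels, since its header letters stood opposite to their use in the other lineages. Single bees overlapped, from 48.1% to 82.4% in reproductive bees and from 31.5% to 69.7% in sterile bees. In GB50559 the mean share reached 66.9% in reproductive and 55.7% in sterile bees, a log2 difference of 0.76 (SE 0.52).

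GB43826 leaned the other way, and its direction in L888 again rests on the status labels. Its lineage shares were 71.2%, 65.6%, 49.3% and 40.8% in reproductive bees of L875, L882, L888 and L894, against 91.6%, 71.4%, 67.8% and 77.2% in sterile bees. The share was lower in reproductive bees in every lineage, with a log2 difference of -1.45 (SE 0.64, adjusted p = 1 in edgeR) over 512 reads in all. GB44414 and its identical partner averaged 56.2% in reproductive and 68.3% in sterile bees, with a log2 difference of -0.96 (SE 0.84). When the status difference was allowed to vary by lineage, 32 of 3469 genes (0.922%) showed a variation that passed the same threshold in edgeR. None of the 27 was among them, their lowest adjusted p was 0.616, and 1 had an unadjusted p under 0.05, against 239 of all genes.

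**Figure D4:**
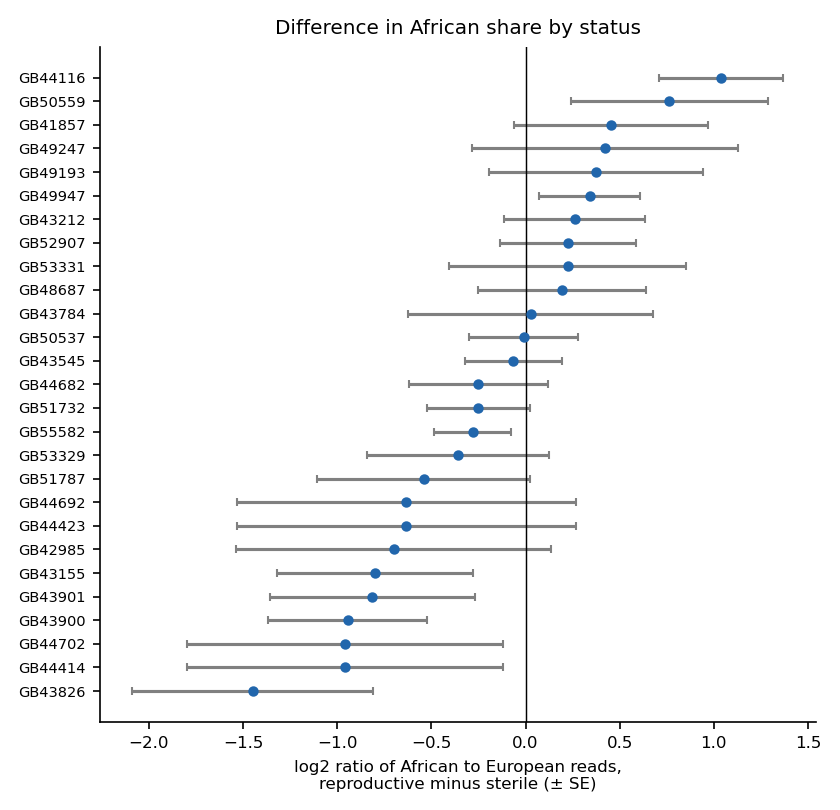
Difference in the log2 ratio of African to European reads between reproductive and sterile bees (x axis, positive where higher in reproductive bees) for the 27 genes (y axis); points are edgeR estimates and bars are standard errors. The values run from -1.45 for GB43826 to 1.04 for GB44116, with 16 below and 11 above 0.

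Total expression, which the rule did not use, was compared from the deposited estimated counts. The allele tables and the total table did not scale together: allele reads per estimated count ranged from 0.0164 to 32.9 among the 27 genes, with a median of 0.721, and were over 1 in 12 of the 27. Across the 3469 genes the median ratio was 1.51 and 292 genes were listed with no estimated count at all. Levels from the total table and shares from the allele tables therefore need not rest on the same reads. Levels are given as CPM, counts per 1000000 counts of a library with library sizes scaled by trimmed means. The median level per bee of the 27 genes ran from 0 to 181 CPM, with a median over genes of 6.08. In whole brains, fewer cells of a type and less RNA per cell cannot be told apart.

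Between reproductive and sterile bees, 25 of the 27 genes had enough counts to be tested, all but GB49247 and GB51732. In edgeR 0 of the 25 passed an adjusted p of 0.05, and 0 of 10071 genes did (0%). An unadjusted p under 0.05 was reached by 1 of the 25, GB50537, and by 237 (2.35%) of all genes, and DESeq2 called 1 of all genes and 0 of the 25. GB50537 averaged 39.4 ± 26.4 CPM in reproductive bees and 28.2 ± 15.04 CPM in sterile bees (SD, n = 12 each). That is 0.47 on the log2 scale (SE 0.22). GB42985 averaged 77.9 ± 146 CPM in reproductive bees and 42.9 ± 66.9 CPM in sterile bees, a log2 difference of 0.75 (SE 0.64), with spreads larger than the means. That difference was 0.11 without reproductive bee 2 of L882, 0.31 without reproductive bee 1 of L875 and 1.28 without sterile bee 2 of L888. GB51787 had a log2 difference of 0.56 (SE 0.48), which was 0.08 without reproductive bee 3 of L875. On the other side, GB41857 averaged 1.02 ± 0.92 CPM in reproductive bees and 1.52 ± 1.31 CPM in sterile bees, a log2 difference of -0.51 (SE 0.48) that ran from -0.83 to -0.31 with 1 bee left out. GB50559, with a log2 difference of -0.42 (SE 1.07), averaged 0.24 CPM in reproductive bees and 0.31 CPM in sterile bees. Its sign turned to 0.59 without sterile bee 1 of L875 and to 0.22 without sterile bee 3 of L888.

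Between cross directions, Afr x Eur was compared with Eur x Afr within each block, and a gene was called when both blocks passed with the same sign. In edgeR 1 of 10071 genes (0.00993%) was so called and 0 of the 25. With an unadjusted p under 0.05 in both blocks and the same sign there were 1 of the 25, GB42985, and 34 of all genes. DESeq2 called 2 of all genes and limma voom 0, with 0 of the 25 in each. L888 over L875 called 22 genes (0.218%) and L894 over L882 called 12 (0.119%), with 0 of the 25 in either. In L888 over L875, 4 of the 25 genes had an unadjusted p under 0.05, against 1324 of all genes (13.1%). In L894 over L882, 4 did, all lower in L894, against 1309 of all genes (12.998%). The test of whether the difference varied between blocks called 14 genes (0.139%) and 0 of the 25, with a lowest adjusted p of 0.124 among them. There, 8 of the 25 and 2065 of all genes had an unadjusted p under 0.05.

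GB42985 had the largest difference in both blocks. Its level was 5.20 CPM at the lowest, 13.1 in the median and 61.3 at the highest in L888, against 28.4, 122 and 490 CPM in L875. It was 4.59, 6.24 and 11.3 CPM in L894, against 7.57, 10.3 and 248 CPM in L882. The ranges overlapped in both blocks. The log2 difference was -2.94 (SE 0.80, adjusted p = 0.178 in edgeR) for L888 over L875 and -2.06 (SE 0.80, adjusted p = 0.302) for L894 over L882. In L882 the mean rested on reproductive bee 2, at 248 CPM, whereas its 5 sisters lay between 7.57 and 16.5 CPM.

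Level and share of GB42985 did not move in a single direction. In L875 the bees with 490, 187 and 177 CPM had shares of 94.99%, 92.8% and 92.0%, whereas those with 67.5, 30.3 and 28.4 CPM had 69.8%, 51.2% and 51.6%. In L882 the bee with 248 CPM had a share of 24.8% and in L888 the bee with 61.3 CPM, sterile bee 2, had 13.98%, each the lowest of its lineage. The highest levels thus went with a high African share in L875 and with a low one in L882 and L888. In L894 levels stayed between 4.59 and 11.3 CPM, the bees with the lowest shares, 19.4% and 26.02%, had 5.39 and 8.24 CPM, and the bee with the highest level had 80.4%. No such split of level was seen for GB51787, where the bees of L875 with 95.4% and 100% included both the highest and the lowest level, 24.2 and 0.348 CPM. In L888 its bee with 94.6% had 20.7 CPM, the highest of that lineage, next to 17.9 CPM in a sister with 49.5%.

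**Figure D5:**
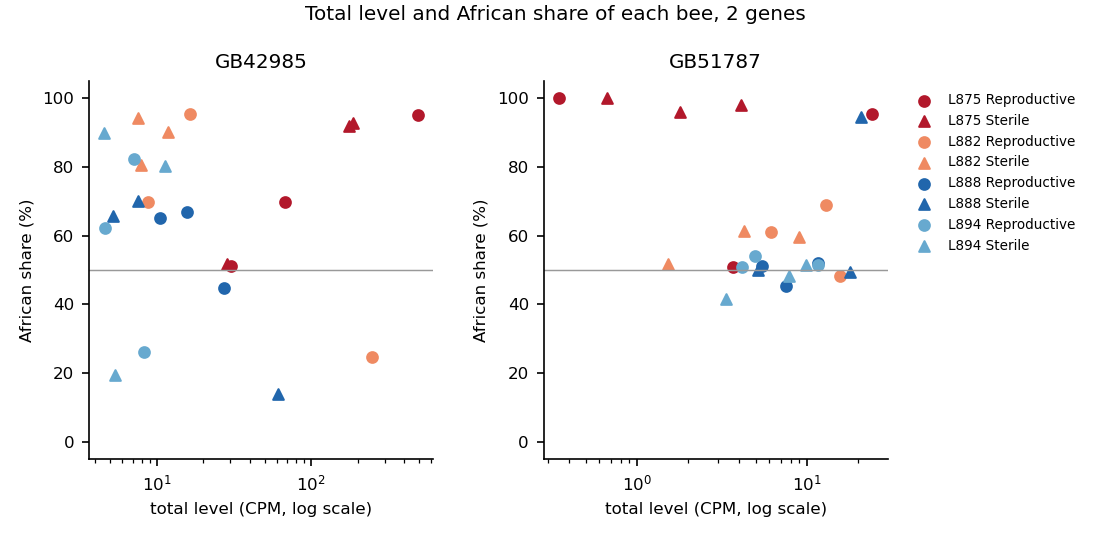
Total level (x axis, CPM on a log scale) against African share (y axis, %) of GB42985 and GB51787 in each of the 24 bees, by lineage (color) and status (circles, reproductive; triangles, sterile); the line marks 50%. For GB42985 the 3 highest bees of L875 lie at 92.0% to 94.99%, and the highest bee of L882 lies at 24.8%.

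GB43900, GB50537 and GB51787 completed the cross comparison. GB43900 averaged 1.75 ± 0.93 CPM in L888 and 0.60 ± 0.35 CPM in L875 (SD, n = 6 each), which is 1.51 on the log2 scale (SE 0.45, adjusted p = 0.229 in edgeR). In the other block it averaged 0.985 ± 0.509 CPM in L894 and 0.998 ± 0.303 CPM in L882, a log2 difference of -0.06 (SE 0.43). GB51787 had log2 differences of 1.26 (SE 0.62) for L888 over L875 and -0.11 (SE 0.60) for L894 over L882. The mean of the 2 blocks, 0.57, was 1.10 without reproductive bee 3 of L875. GB50537 averaged 46.8 ± 30.95 CPM in L888 and 45.3 ± 18.2 CPM in L875, and 14.97 ± 6.37 CPM in L894 and 28.01 ± 5.34 CPM in L882. Its log2 differences were -0.05 (SE 0.30) and -0.92 (SE 0.31, adjusted p = 0.254), so neither block passed the threshold.

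Some members had neighbouring identifier numbers among the 3469 genes: GB43900 with GB43901, and GB53329 with GB53331. GB43900 and GB43901 had shares of 83.8% and 85.2% in L875, 58.7% and 56.2% in L882, 55.2% and 62.2% in L888, and 61.6% and 66.1% in L894. Both were highest in L875. Of the 49 genes next in number to a member, 40.8% had a mean share over 50%, against 35.0% of all genes. Number order is all that is known here, and positions on the genome were not used.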

How the data were processed

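PolyA RNA of 24 brains was sequenced by the authors. HISAT2 and limma were used per the submitters' processing notes, which give no version. The counting tool, build, annotation and allele rule were not given in the sources used here. Per the file headers, the deposited allele tables hold read counts per gene for the drone (paternal) and queen (maternal) copy of each bee. The deposited expression table holds the authors' estimated counts per gene, not scaled to a common total, which were rounded to whole numbers. Identical repeated identifiers were reduced to 1 each.

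African reads were drone reads in L875 and L882 and queen reads in L888 and L894. Tests used edgeR 4.0.16 in R 4.3.3 (quasi-likelihood, two-sided, Benjamini-Hochberg over all genes tested). Share tests had a column for each copy of each bee with the same library size. Level tests used TMM and filterByExpr on the 8 groups, with lineage as a term for status and 1 mean per group for cross direction. DESeq2 1.42.0 and limma 3.58.1 were alternatives. On simulated data the level tests missed most small changes, and the test by cross direction also missed most changes of 1 on the log2 scale. Named genes were the extremes of each measure, at most 2 per side, with at least 400 reads except for the highest shares and most reads. GB53331, GB43784, GB55582 and the genes listed as meeting the rule in both statuses, lost without sterile bee 2 of L888 or adjacent in number were named after their values were seen. Members and lists were chosen with earlier results of these data known.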

Additional observations from a re-analysis of the deposited data

How the results depend on the processing

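The number of genes favouring the African copy was 11 instead of 27 with a share of 60%. It was 49, 39, 112 and 133 when the rule left out L875, L882, L888 or L894. Leaving out a lineage also loosened the rule, since 1 lineage fewer then had to reach the share. All 27 genes met the loosened rule each time. The part of the removed lineage itself in these higher counts was not tested. Without 1 bee the number of genes ranged from 23 to 31. With 1 bee left out (sterile bee 2 of L888, chosen after seeing the data), the genes chosen in the other 3 lineages were over 50% at 77.3% in L875, 82.4% in L882, 41.7% in L888 and 32% in L894.

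The count of all genes whose African share differed by status, 0 in the chosen fit, was 5 with DESeq2, 10 with 1 status difference per lineage, 1 in block A, 19 in block B, and 3, 26 and 8 without L875, L888 or L894. It was 0 to 1 without 1 bee. For level by status it was 1 with DESeq2 and 0 without any 1 bee. By cross direction it was 2 with DESeq2, 0 with limma voom and 0 to 1 without 1 bee, against 1. The 27 genes had 0 calls in each of these settings; the causes were not tested. GB50559's level difference by status, -0.42, was 0.36 with limma voom and ran from -1.08 to 0.59 without 1 bee. Of the recomputed values, 597 were classed as the same, 27 as moved and 3 as reversed. For log2 differences of single genes, the same meant an unchanged sign and call. For counts of called genes, it meant an equal count or one within a fixed fold range.

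Bees of different groups could not be paired with each other, because the labels give no replicate numbers that they share. The share test did pair the African and European reads of each bee. Low reads limit single-bee shares: the median interval reached 49.95 percentage points in GB51732 and 3.87 in GB51787.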
